A study of Mus musculus with 2 samples.

Results

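On mouse chromosomes 3 and 8, peaks of an anti-Nr4a2 chromatin immunoprecipitation did not lie evenly but in blocks, with stretches of many peaks next to stretches of almost none. The set described here was every peak of the deposited list on these chromosomes, which came to 1136 of 7680 peaks, 585 on chromosome 3 and 551 on chromosome 8. The chromosomes had been chosen by the measured peak counts themselves, for sharp steps between neighbouring 10 Mb bins, so the unevenness is a description and carries no test. Pileup, fold enrichment and local background come from the same comparison and are described in the same way. Gene content was not used in that choice.

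The study made 1 library from DNA precipitated with an antibody against Nr4a2 and 1 from unprecipitated input DNA, both from BV2 cells, an immortalised line of mouse microglia. The labels name no treatment, although the header of the peak list carries the tag H2O2 in its library names. A peak list holds no expression values, so the cell type was not checked against its markers. With 1 library of each kind, no value below has a measure of variation between cultures, and intervals cover counting error only. After removal of duplicates the header gives 20365794 tags in the ChIP library and 22520884 in the input.

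Nr4a2 (Nurr1) is an orphan nuclear receptor that binds DNA as a monomer at the NGFI-B response element, the hexamer AGGTCA with a short extension before it, and as a dimer at paired sites. It is known for maintaining midbrain dopamine neurons and, in microglia, for restraining inflammatory genes. A peak in such data is a stretch where extended ChIP tags outnumber a local background estimated from the input. It does not by itself show that the protein touches that base sequence.

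Among 1534 coding genes of these chromosomes with a promoter window in the RefSeq table (250 bases before to 50 after the start, GRCm38.p6), 6 had a peak summit inside that window, all in dense blocks. Dense blocks, defined below by their peak counts, held 1055 of the 1534 genes and most of the peaks, so nothing is read from that. The 250 bases before the start are shown for the 4 of them whose deposited q was at most 0.05, because there a summit lay close to a gene start. Each runs 5′ to 3′ on the gene's strand, and capitals mark every match, on either strand, to the hexamer AGGTCA, the GC box GGGCGG or the CCAAT box CCAAT. The windows were chr8:70873491-70873740 on the minus strand for Ccdc124, chr3:53863808-53864057 on the minus strand for Ufm1, chr8:105827494-105827743 on the plus strand for Tsnaxip1 and chr8:108714394-108714643 on the plus strand for Zfhx3.
Ccdc124: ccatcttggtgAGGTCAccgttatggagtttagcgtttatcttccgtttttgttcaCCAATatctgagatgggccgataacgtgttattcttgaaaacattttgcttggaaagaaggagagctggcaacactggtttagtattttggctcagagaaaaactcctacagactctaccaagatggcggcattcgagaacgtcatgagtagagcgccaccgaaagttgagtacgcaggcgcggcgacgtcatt
Ufm1: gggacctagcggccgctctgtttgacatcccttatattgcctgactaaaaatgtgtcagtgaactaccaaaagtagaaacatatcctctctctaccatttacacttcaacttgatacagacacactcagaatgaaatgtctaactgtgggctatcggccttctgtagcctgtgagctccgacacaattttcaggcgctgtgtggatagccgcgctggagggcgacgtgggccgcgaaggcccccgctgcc
Tsnaxip1: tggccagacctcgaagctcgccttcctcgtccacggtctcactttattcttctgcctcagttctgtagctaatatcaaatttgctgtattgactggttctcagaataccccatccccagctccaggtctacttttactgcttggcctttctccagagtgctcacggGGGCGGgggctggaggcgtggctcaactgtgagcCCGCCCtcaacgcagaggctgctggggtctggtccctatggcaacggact
Zfhx3: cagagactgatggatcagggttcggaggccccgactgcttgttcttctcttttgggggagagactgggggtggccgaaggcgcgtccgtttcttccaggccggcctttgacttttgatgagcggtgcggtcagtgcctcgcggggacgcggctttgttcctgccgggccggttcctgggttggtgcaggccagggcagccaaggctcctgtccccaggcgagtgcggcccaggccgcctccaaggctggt
Ccdc124, which encodes a ribosome-associated factor, had a peak of 13 tags and 4.49-fold enrichment with its summit 40 bp after the start. Ufm1, a ubiquitin-like protein modifier, had a peak of 14 tags and 4.22-fold with its summit 185 bp before the start, inside the printed bases. The peak of Tsnaxip1 had a fold of 4.17 and a summit 224 bp before the start. That of Zfhx3, a homeobox transcription factor, had a fold of 3.50 and a summit 77 bp before it. The printed bases of Ccdc124 held 1 hexamer and 1 CCAAT box, those of Tsnaxip1 held 2 GC boxes, and those of Ufm1 and Zfhx3 held none of these words. None of these matches lay inside the called peak. The peak of Ccdc124, chr8:70873296-70873465, lay wholly outside its printed bases. That of Tsnaxip1 ended at 105827619, before the first GC box.

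To place the steps, peaks were counted by summit in 1 Mb bins, and each chromosome was divided into blocks of constant mean count. A block was called dense where its mean reached that of the whole list, 2.96 peaks per Mb over 2581 bins of chromosomes 1 to 19 and X, and sparse otherwise. Chromosome 3 fell into 5 blocks and chromosome 8 into 2. Block 1 of chromosome 3 (chr3:3000001-42000000) held 11 peaks in 39 Mb, a density of 0.282 per Mb (95% Poisson interval 0.141 to 0.505). Block 2 (chr3:42000001-57000000) held 146 peaks in 15 Mb, or 9.73 per Mb (8.22 to 11.4). Block 3 (chr3:57000001-72000000), of the same length, held 9 peaks, or 0.600 per Mb (0.274 to 1.14). Block 4 (chr3:72000001-109000000) held 311 peaks in 37 Mb, or 8.41 per Mb (7.50 to 9.39). Block 5 (chr3:109000001-160000000) held 108 peaks in 51 Mb, or 2.12 per Mb (1.74 to 2.56), the sparse block nearest to the limit. On chromosome 8, block 1 (chr8:3000001-40000000) held 27 peaks in 37 Mb, or 0.730 per Mb (0.481 to 1.06), and block 2 (chr8:40000001-130000000) held 524 peaks in 90 Mb, or 5.82 per Mb (5.33 to 6.34), the dense block nearest to the limit.

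Dense and sparse blocks covered 142 Mb each. The dense blocks held 981 peaks, 6.91 per Mb (6.48 to 7.35), and the sparse blocks 155, 1.09 per Mb (0.926 to 1.28), a ratio of 6.33 (5.34 to 7.55). The ratio was 7.21 (5.91 to 8.84) on chromosome 3 and 7.98 (5.42 to 12.2) on chromosome 8. Against the 3 sparse blocks below 1 peak per Mb, which held 47 peaks in 91 Mb, it was 13.4 (9.98 to 18.3). Of the 142 bins in dense blocks 1 was empty and 100 held 5 peaks or more, with a median of 6 and a highest count of 17. Of the 142 bins in sparse blocks 76 were empty and 4 held 5 or more, with a median of 0. The other chromosomes together held 2.84 peaks per Mb, between both kinds.

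The first step, at 42 Mb of chromosome 3, was the largest of 19 steps found the same way over the whole list, with a 34.5-fold change between the block means. The last summit before it lay at 33908838 and the first after it at 42776476, so that 8868 kb between them held no peak. The 5 Mb before the edge held 0 peaks and the 5 Mb after it 45, a ratio of 15.0 when the empty side is set at the 3 counts that a count of 0 allows, with an exact conditional lower limit of 11.7. Coding genes went the other way, with 24 in the 5 Mb before and 2 in the 5 Mb after. The nearest coding genes were D3Ertd751e before the edge and Pcdh10, a protocadherin of neuronal cell adhesion, after it.

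At 57 Mb the density fell from block 2 to block 3, a 16.2-fold change and the third largest in the list. The 5 Mb before this edge held 50 peaks and the 5 Mb after it 2, a ratio of 25 (6.57 to 212), whereas coding genes numbered 23 and 32. The last summit before the edge lay at 56253437, the first after it at 57205779, and the gap was 952 kb. The flanking coding genes were Nbea, encoding the vesicle-trafficking scaffold neurobeachin, and Tm4sf1, a four-span membrane protein. The local background at peaks had a median of 2.71 tags in the 5 Mb before the edge. At the 2 peaks after it the median was 1.786, the genome-wide value. The other edges with peaks on both sides showed no such change. At 72 Mb both medians were 1.786, and at 109 Mb they were 1.790 and 1.786. At 40 Mb of chromosome 8 both were 1.786.

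At 72 Mb the density rose again, 14-fold between block means, with 5 peaks in the 5 Mb before and 50 in the 5 Mb after (ratio 10.0, 4.01 to 32.1). This edge was narrow, with summits at 71863444 and 72045358, 182 kb apart. It lay between Otol1, which encodes the inner-ear protein otolin, and Sis, the intestinal sucrase-isomaltase, and coding genes numbered 22 before and 11 after. The edge at 109 Mb was softer, a 3.97-fold change. It had 26 peaks in the 5 Mb before and 8 in the 5 Mb after (ratio 3.25, 1.43 to 8.31), while the single megabases on either side held 6 and 4. Here coding genes fell with the peaks, from 86 to 13, and Fam102b lay across the edge between Henmt1, which methylates piRNA ends, and Slc25a54, a mitochondrial carrier.

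On chromosome 8 the single step lay at 40 Mb, with 1 peak in the 5 Mb before and 29 in the 5 Mb after (ratio 29.0, 4.81 to 1184). No summit fell between 35390978 and 40252187, a gap of 4861 kb. Coding genes numbered 13 before and 26 after. Msr1, a macrophage scavenger receptor, stood before the edge and Fgf20, a fibroblast growth factor, after it. Of the 20 chromosomes compared, 9 had no step, 6 had 1, 3 had 2, 1 had 3 and chromosome 3 had 4.

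**Figure D1:**
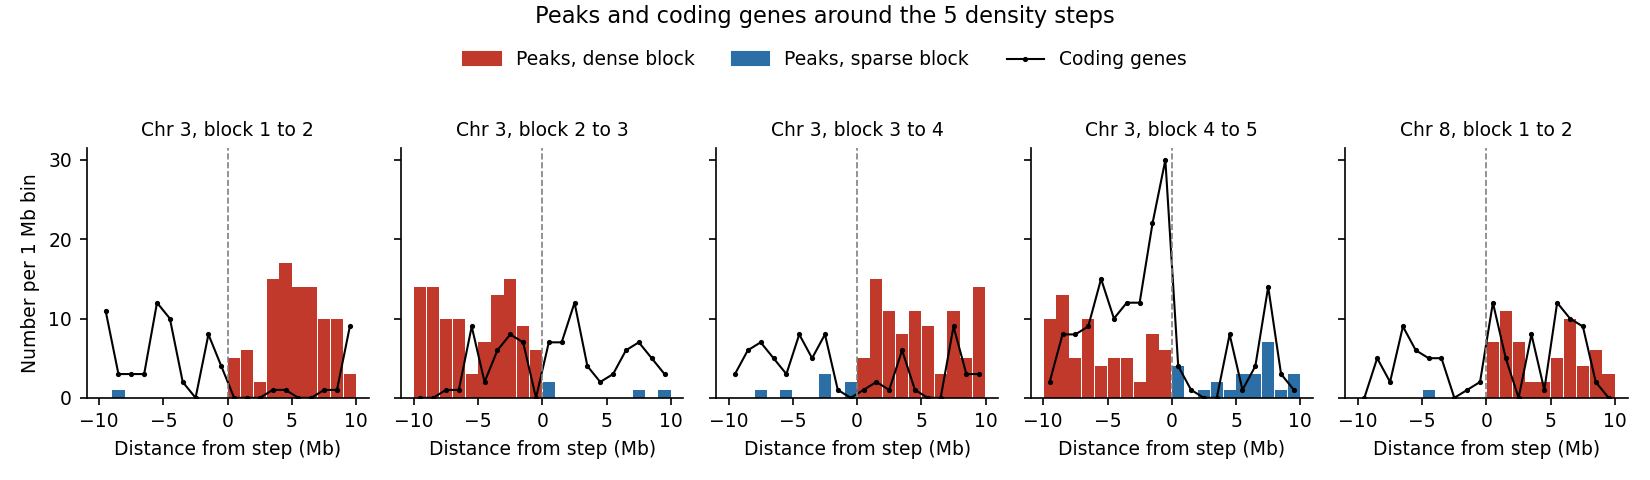
Peaks (bars, red in dense and blue in sparse blocks) and coding genes (black line) in 1 Mb bins, by distance in Mb from each of the 5 density steps. At the edges at 42 and 57 Mb of chromosome 3 the bars change while the line stays low or runs the other way, and at 109 Mb both fall.

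Gene content differed between the kinds of block by less than peak density did. Blocks were cut by peak counts and not by gene counts, so a wider gap in peaks was favoured by the choice. Dense blocks held 9.19 coding genes per Mb and sparse blocks 5.07, a ratio of 1.81 beside the ratio of 6.33 for peaks. On chromosome 3 the gene ratio was 2.40 and the peak ratio 7.21, and on chromosome 8 they were 1.17 and 7.98. The dense block 2 of chromosome 3 was the poorest in genes of all 7 blocks, with 36 coding genes, 2.40 per Mb, and 18.3% of its bases inside a coding gene. The sparse blocks on either side of it held 3.67 and 5.20 coding genes per Mb, with 30.0% and 32.6% of bases inside them. Block 4, dense as well, was the richest, with 498 coding genes, 13.5 per Mb. On chromosome 8 the sparse and the dense block held 7.32 and 8.57 coding genes per Mb, and 39.2% and 40.4% of their bases lay inside a coding gene.

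**Figure D2:**
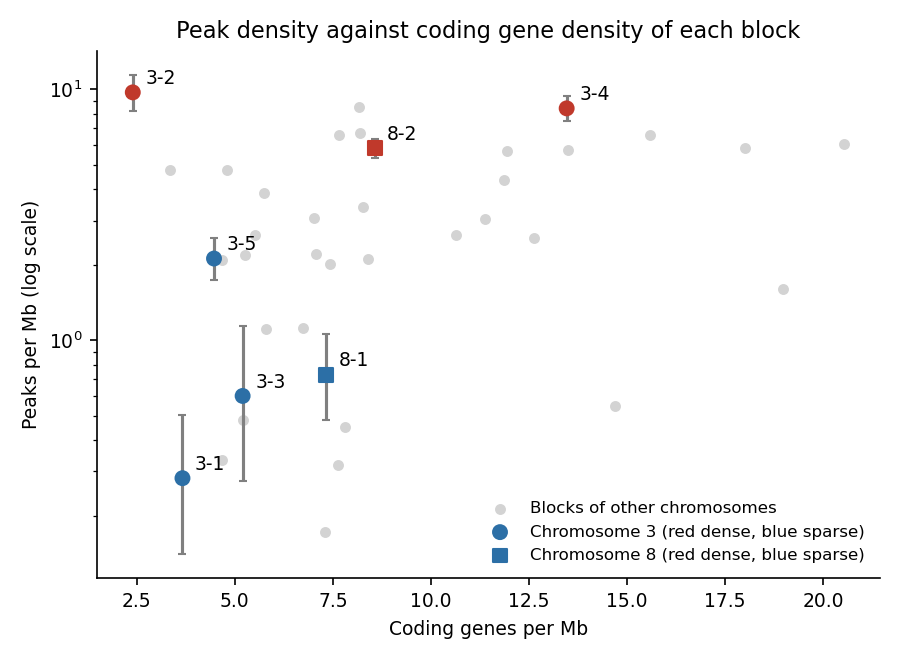
Peaks per Mb (log scale) against coding genes per Mb for each block of the list, with 95% Poisson intervals for the blocks of chromosomes 3 and 8, labelled by chromosome and block number. Block 2 of chromosome 3 (3-2) has the highest density, 9.73 per Mb, at the lowest gene content, 2.40 per Mb, and the blocks 8-1 and 8-2 differ in peaks at 7.32 and 8.57 genes per Mb.

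Peak density is given next for bins of like gene content. Since the blocks were defined by these same peak counts, dense above sparse is fixed by the choice, and the values describe only its size in each group of bins. In bins with 0 to 3 coding genes there were 6.05 peaks per Mb in dense blocks (5.43 to 6.73, 56 bins) and 0.761 in sparse blocks (0.571 to 0.992, 71 bins). With 4 to 9 genes the densities were 7.33 (6.54 to 8.20, 42 bins) and 1.43 (1.11 to 1.80, 49 bins), and with 10 or more they were 7.59 (6.80 to 8.45, 44 bins) and 1.41 (0.957 to 2.0, 22 bins). Inside the dense blocks the order differed between the chromosomes. On chromosome 8 density went up with gene content, from 3.80 over 6.0 to 8.26 per Mb, whereas on chromosome 3 it was 9.81 and 10.0 in the gene-poor and middle bins and 6.53 in the gene-rich ones. Neighbouring bins share their block, so these bins are not independent.

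**Figure D3:**
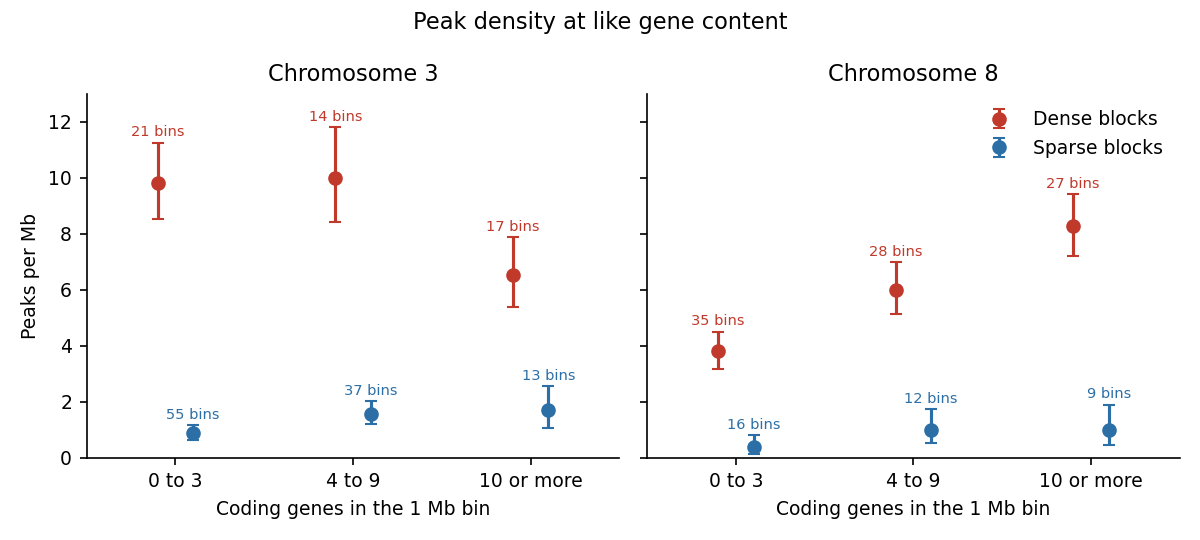
Peaks per Mb in 1 Mb bins grouped by their number of coding genes, for dense (red) and sparse (blue) blocks of each chromosome; points are densities, bars 95% Poisson intervals. The blocks were defined by these counts, so red above blue is fixed; the order of the red points differs between chromosomes 3 and 8.

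The 4 neighbouring bins with the most peaks on each chromosome, a choice made after the counts were seen, show both ends of this range. From 45 to 49 Mb of chromosome 3 there were 60 peaks, 15.0 per Mb, and 2 coding genes, Pcdh10 and Pabpc4l, which encodes a relative of the poly(A)-binding proteins; 2 of the summits lay inside a coding gene. From 68 to 72 Mb of chromosome 8 there were 59 peaks, 14.8 per Mb, and 115 coding genes, 30 of them with a peak, and 39 summits lay inside a coding gene. The genes with a peak there included Lpl, lipoprotein lipase of triglyceride uptake, Gdf15, a stress-induced secreted factor, and Crtc1, a coactivator of CREB. Peaks of both stretches had a median pileup of 11 tags, with median folds of 3.58 and 3.81. The median local background was 2.35 tags on chromosome 3 and 1.93 on chromosome 8.

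Peak height was much the same in pooled dense and pooled sparse blocks. The pileup, the number of extended ChIP tags at the summit, had a median of 10 in both kinds. The fold enrichment, the authors' own value for each peak, had a median of 3.59 in dense and 3.76 in sparse blocks. A deposited q of at most 0.05 was reached by 501 peaks of dense blocks (51.1%, 47.9 to 54.2) and 84 of sparse blocks (54.2%, 46.0 to 62.2), beside 50.6% of the whole list. Folds of at least 5 were found at 40 peaks of dense blocks (4.08%) and 9 of sparse blocks (5.81%). The share of peaks of 14 tags or more differed in opposite directions on the chromosomes. It was 15.1% in dense and 7.81% in sparse blocks of chromosome 3, and 4.39% and 25.9% on chromosome 8.

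The local background moved with density on chromosome 3, whereas on chromosome 8 the values do not settle whether it did. Recovered from pileup and fold, it is never below 1.786 tags, the genome-wide value, and lies above it where the input or its surroundings hold more tags. It was at the genome-wide value for 347 peaks of dense blocks (35.4%, 32.4 to 38.5) and 101 of sparse blocks (65.2%, 57.1 to 72.6). In block 2 of chromosome 3 only 14 of 146 peaks (9.59%) were at that value, 77 (52.7%) were over 2.5 tags and the median was 2.55. Among 36 blocks of the list with 10 or more peaks this was the lowest share at the genome-wide value. In block 4 the share was 31.2%, in block 5 it was 66.7%, in block 1 it was 81.8% (9 of 11), and in block 3 it was 88.9% (8 of 9). On chromosome 8 it was 44.4% (25.5 to 64.7) in the sparse and 45.0% (40.7 to 49.4) in the dense block. Without the bin from 20 to 21 Mb, taken up after the plot of background and height, the sparse block had 68.8%. That share rests on 16 peaks, and its interval of 41.3 to 89.0 contains the dense value.

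The median pileup was highest in block 2 of chromosome 3, at 12 tags, and its median fold was 3.56. Its share of peaks of 14 tags or more, 35 of 146 (24.0%), was close to that of the sparse block of chromosome 8, 7 of 27 (25.9%). Counted apart, peaks at the genome-wide background were 2.52 times as dense in dense as in sparse blocks of chromosome 3 (1.89 to 3.37), and peaks above it 17.9 times (12.8 to 25.6). On chromosome 8 the ratios were 8.09 (4.54 to 15.9) and 7.89 (4.71 to 14.3). Among peaks at the genome-wide background the median fold lay between 3.59 and 3.95 in each of the 7 blocks. Background is known here only under peaks, not between them, and its part in the density was not tested.

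**Figure D4:**
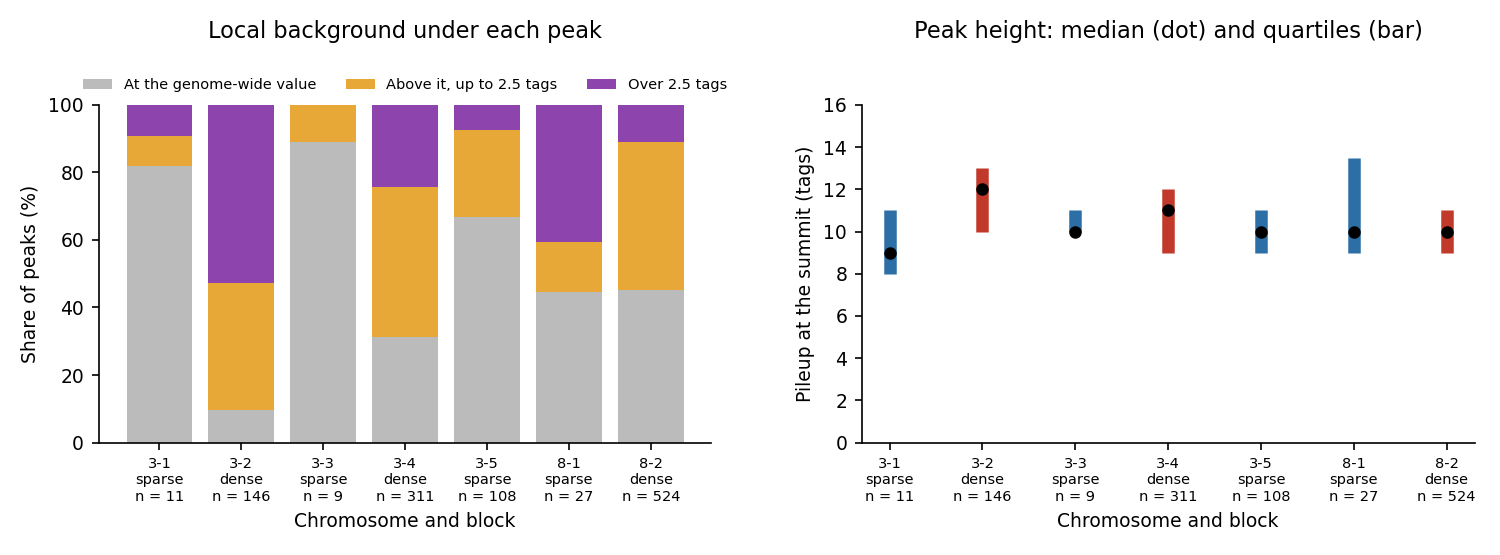
Left, share of peaks (%) in each block with a local background at the genome-wide value, above it up to 2.5 tags, or over 2.5 tags; right, pileup at the summit in tags, median as a dot and quartiles as a bar (red dense, blue sparse). In block 3-2, 9.59% of peaks are at the genome-wide value and the median pileup is 12 tags; medians of the other blocks lie between 9 and 11.

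In the sparse block of chromosome 8, most of the tall peaks came from a single bin. Of its 27 peaks, 11 fell between 20 and 21 Mb, in a bin with the predicted genes Gm15319, Gm40469 and Gm21119 and the defensin gene Defb33, whose family codes for antimicrobial peptides. They included 5 of the block's 7 peaks of 14 tags or more. The 11 had pileups of 10 to 23 tags and a median background of 3.41 (1.786 to 8.14), and 1 of them was at the genome-wide value. The bin was singled out after its counts were seen. With it, peaks of 14 tags or more were 1.35 times as dense in the dense block as in the sparse block (0.561 to 3.73); without it the ratio was 4.60 (1.14 to 40.3). Without it the sparse block held 16 peaks in 36 Mb, 0.444 per Mb (0.254 to 0.722), 68.8% of them (41.3 to 89.0) at the genome-wide background. The density ratio of chromosome 8 was then 13.1 (7.99 to 23.1). The tallest peak of all on these chromosomes, 75 tags at chr3:5860401-5860745 in block 1 of chromosome 3, had a background of 41.6 tags and a fold of 1.78.

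The peaks of highest fold were found in blocks of both kinds. On chromosome 3 the highest was a peak at chr3:116665607-116665795 in sparse block 5, with 19 tags, a fold of 6.20 and a −log10 q of 5.78, 3.04 kb from Mfsd14a, which encodes a transporter-like membrane protein. In block 2 the highest were a peak at chr3:46832072-46832280, with 15 tags and 5.74-fold, 384 kb from Pabpc4l, and peaks inside Nbea at chr3:55894235-55894491 (19 tags, 5.45-fold) and chr3:55919407-55919580 (15 tags, 5.30-fold). Block 4 was led by a peak 9.89 kb from Tdpoz7 (16 tags, 5.87-fold). Next came peaks inside Glrb, the beta subunit of the glycine receptor (15 tags, 5.74-fold), and Serpini1, the protease inhibitor neuroserpin (16 tags, 5.53-fold). In block 1 the highest fold was 4.67, at a peak of 12 tags 618 kb from the sorting nexin gene Snx16. In block 3 it was 5.74, at a peak of 15 tags that lay 1025 kb from Sis.

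On chromosome 8 the highest fold was 6.19, at chr8:123425792-123425969, with 22 tags and a −log10 q of 6.86, 3.82 kb from Tubb3, a tubulin of neurons. Peaks of 16 tags and 6.10-fold lay 367 kb from the annexin gene Anxa10 and inside Zfpm1, a cofactor of GATA factors. In the sparse block the highest fold was 5.38, at a peak of 14 tags 225 kb from Arglu1, which acts in transcription and splicing.

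A coding gene was counted as having a peak where a summit lay inside it or within 1000 bp of an end. By this count 281 of 1305 genes in dense blocks had one (21.5%, 19.3 to 23.9) and 38 of 720 in sparse blocks (5.28%, 3.76 to 7.17), beside 12.8% of all 21517 coding genes of chromosomes 1 to 19 and X. The dense blocks contribute more peaks by the way they were defined, so nothing is read from the size of that gap. In the 3 blocks below 1 peak per Mb, 9 genes had a peak (1.83%). Of the peaks in dense blocks 408 lay inside a coding gene (41.6%, where 37.6% of bases do), and in sparse blocks 41 (26.5%, where 34.5% of bases do). In dense blocks the shares of peaks and bases were 33.0% and 32.7% on chromosome 3, and 49.0% and 40.4% on chromosome 8. In sparse blocks they were 28.1% and 32.9% on chromosome 3, and 18.5% and 39.2% on chromosome 8. In block 2 of chromosome 3, 32 of 146 peaks lay inside a coding gene (21.9%, where 18.3% of bases do). The median distance to the nearest end of a coding gene was 168 kb there, beside 36.6 kb in block 4 and 30.5 kb in block 2 of chromosome 8.

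Longer genes had a peak more often in both kinds of block. Of coding genes of 200 kb or more, 41 of 46 in dense blocks had a peak (89.1%, 76.4 to 96.4) and 10 of 47 in sparse blocks (21.3%, 10.7 to 35.7). Of genes under 10 kb, 31 of 454 (6.83%) and 1 of 166 (0.602%) had one. All 11 genes with 5 peaks or more lay in dense blocks, which hold more peaks by definition, so nothing is read from that count. Per 100 kb they ran from 0.540 peaks in Tenm3 to 4.37 in Galnt2. The block of both held 5.82 peaks per Mb. Nbea had 10 peaks over 558.6 kb. The synaptic adhesion gene Tenm3 had 7 over 1297 kb, with a highest fold of 4.67. Fstl5, Inpp4b (a phosphoinositide phosphatase), Lrba (a relative of Nbea) and Psd3 had 6 each. Galnt2, an enzyme that starts mucin-type O-glycans, had 5 within 114 kb.

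Many long genes of the sparse blocks had no peak. On chromosome 3 these included Naaladl2 of 1346 kb and the synaptic adhesion gene Nlgn1 of 911 kb in block 1, and the potassium channel subunit gene Kcnab1 of 429 kb in block 3. On chromosome 8 they included Csmd1 of 1643 kb, Sgcz of 1144 kb, a sarcoglycan, and Nrg1 of 1084 kb, the ErbB ligand neuregulin. Long genes of dense blocks varied as well, and Cdh13, a cadherin of 1185 kb on chromosome 8, had 1 peak, of 2.87-fold.

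**Figure D5:**
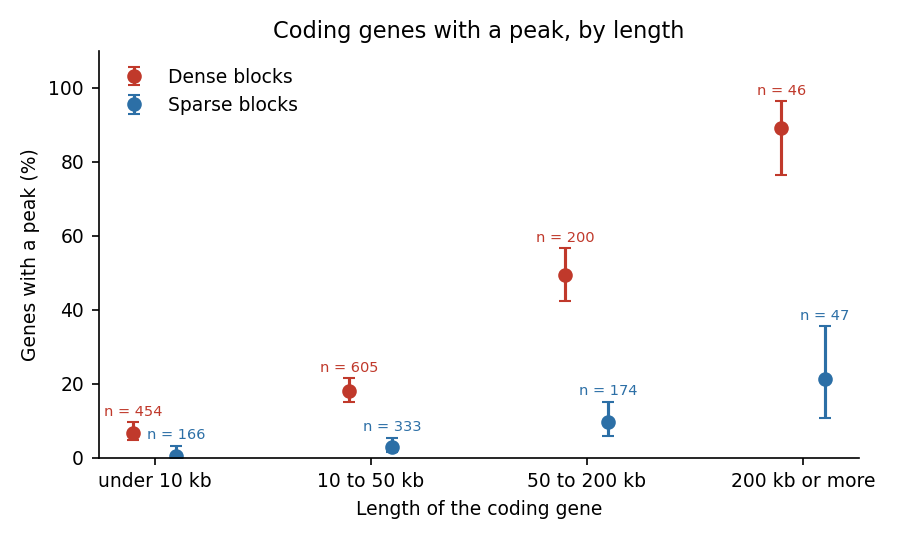
Share of coding genes (%) with a peak inside or within 1000 bp of an end, by gene length, in dense (red) and sparse (blue) blocks of both chromosomes; bars are 95% Clopper-Pearson intervals and n the number of genes. The shares go up with length in both kinds, to 89.1% and 21.3% for genes of 200 kb or more.

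The gene lists are set beside the shares of all coding genes with a peak, 21.5% in dense and 5.28% in sparse blocks, and no list was tested against them. Genes of microglial interest lay on both sides of the steps. Of 18 microglia and phagocyte genes, 12 were in dense and 6 in sparse blocks. A peak was found at 3 of the 12, namely Ctsk, the protease cathepsin K (4.09-fold, 0.553 kb from a gene end), Csf1, the ligand of the receptor that microglia need to survive (3.59-fold), and Plcg2, a phospholipase of immune receptors (2 peaks, up to 4.27-fold). None was found at the 6 in sparse blocks, all in block 3 of chromosome 3, which include the purinergic receptors P2ry12 and P2ry13, markers of microglia. The nearest summits lay 1682 kb from P2ry12 and 1673 kb from P2ry13. Of 27 inflammatory and NF-kappaB genes, 4 of 14 in dense blocks had a peak and 0 of 13 in sparse blocks. Among the 4 were Il6ra, an interleukin-6 receptor chain (3.85-fold), Cyld, a deubiquitinase that restrains NF-kappaB (3.59-fold), and Il12rb1, an interleukin-12 receptor chain (3.51-fold). Among those without were Nfkb1, an NF-kappaB subunit, with a nearest summit 272.5 kb away, and Il12a at 318.6 kb.

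Lists made up mostly of short genes had few peaks or none in dense blocks, where 6.83% of all coding genes under 10 kb had one. Of 16 oxidative stress and metal defence genes 15 lay in dense blocks, 12 of them under 10 kb, and 0 had a peak. The nearest summits were 62.1 kb from Hmox1, which breaks down haem, 84.9 kb from Nqo1, a quinone reductase, and 3.04 kb from Mt2, a metallothionein. Gclm, the sparse one, codes for a subunit of glutathione synthesis and had its nearest summit at 93.5 kb. Slc7a11, the cystine transporter gene, lies in block 2 of chromosome 3. A peak at chr3:50269280-50269446, with 22 tags, 4.17-fold and a background of 4.52 tags, was 95.6 kb from the nearer end of that gene. Neighbouring summits of the block lay a median of 51.3 kb apart. None of 9 immediate early and stress genes in dense blocks, 8 of them under 10 kb, had a peak, Junb and Klf2 among them, nor did any of 3 in sparse blocks, and likewise none of 4 and 2 ribosomal protein genes.

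Cadherin and synaptic adhesion genes had a peak at 5 of 11 in dense blocks and 2 of 9 in sparse blocks. Many of these are long, with 6 of the 11 and 9 of the 9 at 50 kb or more. Among all coding genes of 50 to 200 kb the shares with a peak were 49.5% and 9.77%, and of 200 kb or more 89.1% and 21.3%. The 5 were Tenm3, Pcdh10 (2 peaks, up to 3.98-fold), Cdh8, Cdh11 and Cdh13. The 2 were the netrin receptors Unc5c (5.34-fold) and Unc5d (3.23-fold). Of developmental regulators 2 of 13 in dense blocks had one, the receptor gene Notch2 with 4 peaks of up to 3.25-fold and Tbx15, and 1 of 7 in sparse blocks, Wwtr1 (3.95-fold), a coactivator of the Hippo pathway. Several gene families lie whole in one kind of block. All 53 defensin genes on these chromosomes, the 6 alcohol dehydrogenases, the 5 guanylate-binding proteins and the 7 vomeronasal receptors lay in sparse blocks, and 0 had a peak. The share of all coding genes with a peak was 5.28% over the sparse blocks but differed between them. It was 1.85% in the block of the defensins and 2.56% in that of the vomeronasal receptors. In block 5 of chromosome 3, which held the alcohol dehydrogenases and guanylate-binding proteins, it was 12.7%. Of the defensin genes 50 were under 10 kb, a length at which 0.602% of all coding genes in sparse blocks had a peak.

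Several families of dense blocks consist mostly of genes under 10 kb, 40 of 46 in the epidermal differentiation complex, 12 of 15 among S100 genes and 7 of 7 among olfactory receptors, a length at which 6.83% of all coding genes in dense blocks and 0.602% in sparse blocks had a peak. A peak was found at 2 of 46 genes of the epidermal differentiation complex, 1 of 15 S100 genes, 1 of 7 olfactory receptor genes and 4 of 19 carboxylesterases, led by Ces4a (4.49-fold). The 2 histone genes with a peak, of 10, shared it (H3c13 and H2bc18, 4.93-fold), and reads of near-identical histone copies may not be placed for certain. ADAM genes had 1 of 11 in dense blocks, Adam25 (3.76-fold), and 0 of 5 in sparse ones. Fibrinogen and amylase genes had 1 of 3 in dense, Fgb (3.45-fold), and 0 of 7 in sparse blocks. Zinc finger genes had 6 of 24, led by Zfp869 (4.86-fold), and 1 of 6, Zfp704 (4.31-fold), beside 21.5% of all coding genes in dense and 5.28% in sparse blocks.

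Pooled over both chromosomes, promoter words were about as common in dense as in sparse blocks, but single blocks differed more. Over the 300-base windows on either strand, the NGFI-B response element AAAGGTCA stood in 1.33% of 1277 starts in dense blocks, 1.5% of 602 in sparse blocks and 1.21% of 21044 starts on chromosomes 1 to 19 and X. Each such match also holds the hexamer AGGTCA, which stood in 11.6%, 13.6% and 12.8%. The CRE TGACGTCA stood in 2.35%, 2.16% and 1.94%, the AP-1 word TGANTCA in 6.42%, 5.48% and 6.17%, the GC box in 45.7%, 42.9% and 43.0%, and the CCAAT box in 36.5%, 33.1% and 35.6%. Median GC content was 57.2% in dense and 55.2% in sparse blocks. The response element was in none of the 6 windows that held a summit, and the hexamer was in 2 of them.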

How the data were processed

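ChIP DNA from BV2 cells, precipitated with an anti-Nr4a2 antibody after enzymatic digestion of chromatin, and input DNA were sequenced, 1 library each. The submitters' processing notes list Bowtie2, MACS2 2.2.6, ChIPseeker and the build mm10; per the file headers peaks were called with MACS 2.1.4 at a p cutoff of 0.001, a fragment length of 164 bp, 1 tag kept per position and the larger library scaled to the smaller. The pileup is a coverage signal in tags that the authors deposited. The deposited fold is a ratio of pileup to local background, each with 1 added. The −log10 p and −log10 q values are those the authors deposited, and q was used as given although the header says that it would not be calculated. Local background was recovered as (pileup + 1) / fold − 1, and a value within 0.01 tags of 1.786 counted as genome-wide. The list names 1 sample, and 0 columns belonged to others.

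Summits were counted in 1 Mb bins from the first to the last annotated gene of each of chromosomes 1 to 19 and X. Blocks of constant Poisson mean were found by exact dynamic programming with a penalty of 3 times the natural log of the number of bins and at least 3 bins a block. The code was run on simulated Poisson counts with the fitted block means or a flat mean. Within the blocks of chromosomes 3 and 8 the variance of bin counts was 1.11 to 4.92 times their mean. The simulation does not cover that wider spread, so it does not show how often false steps arise. Genes came from RefSeq records on GRCm38.p6, with 345 records on extra scaffolds left out, which kept 21517 coding genes, 2025 of them on chromosomes 3 and 8; a bin's genes were counted by midpoint. Promoter sequences came from a RefSeq table of the same build, which matched 1534 of these. Densities carry exact Poisson 95% intervals, ratios exact conditional intervals and shares Clopper-Pearson intervals. Python 3.11.15, numpy 2.4.6, pandas 2.3.3, scipy 1.17.1 and matplotlib 3.10.9 were used. No test was made, since the chromosomes were chosen by the peak counts. The members and the 19 gene lists were chosen with earlier results of these data known. Genes were named by rule: per block the coding gene at the peak of highest fold (in dense blocks at each of the 3 highest), the nearest coding gene on each side of a step, and up to 4 members with a peak per list; 1 such member is not reported here. Long genes, genes with many peaks and examples without a peak were chosen after their values were seen. No genome sequence was used here, so sequence under peaks outside the promoter table was not analysed here. Alternatives changed the bin size and offset, the penalty, the peaks used, the rule for dense blocks, the gene records and the gene-end window.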

Additional observations from a re-analysis of the deposited data

How the results depend on the processing

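Of 78 values over 13 alternatives, 66 stayed within the counting interval of the main value (numbers of steps, within 1.5 times), 12 moved and 0 reversed. Only the coding gene ratio and the difference in share at the genome-wide background could have reversed. Numbers of steps and shares of genes have no direction, and the density ratio is above 1 by definition. The interval of the fold difference spans 0. A penalty of 2 in place of 3 gave 10 steps in place of 5, a density ratio of 12 and 3.21% of genes in sparse blocks with a peak. Runs of a 5-bin running mean gave 16 steps, a density ratio of 8.50 and a coding gene ratio of 2.08. Peaks with a q of at most 0.05 gave 13.5% and 3.53% of genes with a peak in dense and sparse blocks, and peaks of at least 10 tags gave 16.7% in dense blocks; fewer peaks entered both. All gene records other than pseudogenes gave a gene ratio of 1.51. Leaving out block 5 of chromosome 3 and leaving out the bin from 20 to 21 Mb of chromosome 8 were added after the data were seen. Without block 5 the density ratio was 13.4 and the sparse gene share 1.83%. Except where fewer peaks entered, the cause was not tested. The edges at 57 and 72 Mb of chromosome 3 and at 40 Mb of chromosome 8 stayed within 1 Mb under each block rule tried. The edge at 42 Mb lay at 45 Mb with peaks of q at most 0.05 or of at least 10 tags, and that at 109 Mb then at 103 and 104 Mb; the penalty of 2 put 1 edge at 103 Mb and another at 138 Mb. No paired analysis was possible because there was 1 library of each kind. In sparse blocks the counts of 11, 9 and 27 peaks limit every share and median.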
